A study of Homo sapiens with 32 samples.

Results

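The 10 genes described here are immediate early genes and subunits of the transcription factor AP-1: FOS, FOSL1, FOSL2, JUN, JUNB, JUND, EGR1, IER2, IER3 and DUSP1. They were chosen by name, as the rows whose Ensembl identifiers map to these symbols, and make up 10 of the 60616 gene rows used. All 10 passed the filter on low counts in every comparison. RNA came from HCT116, a human colorectal carcinoma line, with and without tunicamycin, a drug that blocks N-linked glycosylation and thereby causes endoplasmic reticulum (ER) stress. The question was how cells that lack the RNA-binding protein IGF2BP3, or its relative IGF2BP2, respond to that stress.

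Every line carried a doxycycline-inducible OsTIR1 transgene (genotype Tet-OsTIR1-PURO), so the parental cells share it with the knockouts. The parental group held 2 parental samples with 2 libraries each in DMSO and 2 each in tunicamycin. IGF2BP3 knockout was represented by clones A3, D12 and E4, and IGF2BP2 knockout by clones B7, F6 and G6, each with 2 libraries per treatment. The clones were made by transient transfection of a plasmid with Cas9, GFP and a guide RNA, and each grew from 1 sorted GFP-positive cell, whereas no such sorting is given for the parental cells. E4 and A3 share a guide and D12 has another; F6 and B7 share a guide and G6 has another. Parental cells and IGF2BP3 knockout clones received tunicamycin at 5 µg/mL for 4 h, or DMSO as vehicle. For clones B7, F6 and G6 neither dose nor duration is given in the sources used here. The control libraries of clone G6 are called control in their titles but tunicamycin in a treatment field, and were kept as DMSO.

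Immediate early genes are transcribed within minutes of a stimulus from factors already present in the cell, so they need no new protein synthesis to be switched on. Many of them encode transcription factors. AP-1 is a dimer of basic leucine zipper proteins, in which a JUN protein pairs with itself, with another JUN protein or with a FOS protein. JUN, FOS and EGR1 are controlled by the MAP kinases ERK, JNK and p38, and DUSP1 is a phosphatase that shuts those kinases off again. In the unfolded protein response the ER stress sensor IRE1 can recruit TRAF2 and so activate JNK, the kinase named for phosphorylating JUN.

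The AP-1 genes lie, on GRCh38 as annotated in GENCODE release 29, at chr14:75278774-75282230 (FOS, plus strand), chr11:65892049-65900573 (FOSL1, minus), chr2:28392448-28417312 (FOSL2, plus), chr1:58780788-58784327 (JUN, minus), chr19:12791496-12793315 (JUNB, plus) and chr19:18279760-18281622 (JUND, minus). The others lie at chr5:138465490-138469315 (EGR1, plus), chr19:13150415-13154908 (IER2, plus), chr6:30743199-30744554 (IER3, minus) and chr5:172768090-172771195 (DUSP1, minus). Counts are per gene and do not tell exons or transcript forms apart.

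The sequences upstream of 5 of these genes are shown as examples of promoters with textbook response elements. Whether these elements bear on the tunicamycin change was not tested. They come from RefSeq on GRCh38.p14 and cover up to 250 bases before the RefSeq start of each gene, written 5′ to 3′ on the gene's strand. 8 of the 10 genes had an entry. FOS is shown to 55 bases before its RefSeq start, where its GENCODE release 29 gene begins. For JUN the bases before the RefSeq start lie inside its GENCODE gene, and 30 bases around the motif are shown. Capitals mark the motifs named for each gene.
EGR1 (chr5:138465229-138465478, plus strand; 2 CArG boxes, bound by serum response factor, and 2 copies of TGACG read from the other strand): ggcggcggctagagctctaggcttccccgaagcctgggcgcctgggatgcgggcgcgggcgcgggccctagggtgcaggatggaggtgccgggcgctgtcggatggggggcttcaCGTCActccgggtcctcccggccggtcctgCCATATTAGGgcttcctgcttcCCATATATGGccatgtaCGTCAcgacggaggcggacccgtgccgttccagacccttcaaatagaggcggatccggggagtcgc
FOS (chr14:75278578-75278773, plus strand; TGACG): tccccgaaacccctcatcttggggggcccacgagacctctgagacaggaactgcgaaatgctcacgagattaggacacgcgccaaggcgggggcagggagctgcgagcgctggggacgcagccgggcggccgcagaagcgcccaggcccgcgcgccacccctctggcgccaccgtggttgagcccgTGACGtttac
JUN (chr1:58784096-58784125, minus strand; TGACATCA, a variant bound by JUN and ATF2): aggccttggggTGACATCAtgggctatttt
JUND (chr19:18281623-18281872, minus strand; TGACGTCA, the cyclic AMP response element): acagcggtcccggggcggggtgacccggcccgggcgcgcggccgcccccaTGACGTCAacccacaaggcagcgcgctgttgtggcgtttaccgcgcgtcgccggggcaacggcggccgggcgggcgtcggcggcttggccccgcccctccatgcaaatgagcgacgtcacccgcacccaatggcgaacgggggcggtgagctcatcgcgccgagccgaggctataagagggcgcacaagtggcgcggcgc
DUSP1 (chr5:172771196-172771445, minus strand; TGACGTCA and a TATA box): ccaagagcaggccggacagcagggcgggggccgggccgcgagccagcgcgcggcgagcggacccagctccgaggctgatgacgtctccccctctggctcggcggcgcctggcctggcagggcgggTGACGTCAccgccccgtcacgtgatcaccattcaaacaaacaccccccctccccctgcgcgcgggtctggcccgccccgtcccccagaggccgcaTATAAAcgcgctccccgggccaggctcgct

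Each motif was searched on both strands of the 250 bases before the start of all 35116 promoters in that table. CArG boxes stood in 1.16% of all promoters and in 1 of the 8 matched genes, EGR1, at 105 to 96 and at 83 to 74 bases before its start. The full cyclic AMP response element TGACGTCA stood in 1.65% of all promoters and in 2 of the 8, JUND and DUSP1. Its first 5 bases, TGACG, which the full element also contains, stood in 21.2% of all promoters and in all 8. TGACATCA stood in 2.37% of all promoters and in JUN. The AP-1 site TGACTCA stood in 4.20% of all promoters and in 0 of the 8, and TATAAA in 10.7% and in 3 of the 8 (FOS, JUNB and DUSP1). A match describes these letters and does not show a bound site. Elements more than 250 bases before a start were not searched. A gene without a match here, such as FOS for the CArG box, may carry one further upstream.

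Total counts ran from 16651438 to 24913021 per library over the 32 libraries, and mitochondrial genes took 8.12% to 9.71% of counts. Epithelial markers summed to 3032 to 5458 CPM (counts scaled to a common library size, with TMM factors over all libraries), with 6 of 7 at a mean of 1 CPM or more (VIL1 was not). Fibroblast markers summed to 4.92 to 12.3 CPM, of which only COL1A1 reached that mean, and 0 of 5 blood markers did. Mean IGF2BP3 in DMSO was 76.9 and 76.6 CPM in the parental samples, 21.3 in A3, 41.5 in D12 and 20.2 in E4. Mean IGF2BP2 was 175 and 178 CPM in the parental samples, 83.0 in B7, 92.0 in F6 and 85.6 in G6. These RNA levels do not measure the proteins. HSPA5, the ER chaperone BiP, lay between 816 and 1000 CPM in the G6 control libraries, between 775 and 1119 in the other DMSO libraries and between 7867 and 10959 in tunicamycin, so the disputed libraries had DMSO levels. Libraries with the same number in their titles (1 or 2) stood apart: those numbered 1 had counts for 21259 to 23139 genes and those numbered 2 for 23423 to 24267. What the number stands for is not given. Nothing in the labels says that libraries came from separate cultures, so p-values measure the spread between these libraries.

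In parental cells without drug, FOSL1 was by far the most abundant of the 10 per length and FOS the least. FOSL1 encodes FRA-1, a FOS-family protein that lacks the strong activation domain of FOS. Levels per kilobase of exon (GENCODE release 29) were 148 ± 24.7 CPM per kb (SD, n = 4) for FOSL1 and 1.01 ± 0.125 for FOS. Between them came JUND (27.1), IER3 (23.8), EGR1 (18.8), JUNB (18.1), FOSL2 (12.4), IER2 (11.6), DUSP1 (4.52) and JUN (4.25). Ranges over the 4 libraries overlapped between JUND and IER3, EGR1 and JUNB, FOSL2 and IER2, and DUSP1 and JUN, and between no other neighbours in that order. In tunicamycin EGR1 moved to the second place, with 128 ± 17.3 CPM per kb (SD, n = 4) after FOSL1 with 183 ± 30.7, and FOS stayed last with 3.43 ± 0.462. In bulk RNA, fewer cells that express a gene and less of its RNA per cell cannot be told apart.

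In tunicamycin FOSL1 took a smaller share of the FOS family, and JUN took a larger share of the JUN family. Of the summed FOS-family level per kb, FOSL1 took 90.5% ± 1.22 (SD, n = 16) in DMSO and 87.2% ± 1.63 in tunicamycin, and its share was lower in tunicamycin in 16 of 16 pairs of libraries of 1 line and number. FOS went from 0.853% ± 0.249 (SD, n = 16) to 1.98% ± 0.481 of the family, FOSB from 0.349% ± 0.0974 to 1.21% ± 0.344, and FOSL2 from 8.29% ± 1.03 to 9.65% ± 1.28, each higher in 16 of 16 pairs. Of the JUN family, JUN, the most strongly activating of the 3 proteins, went from 8.71% ± 1.84 (SD, n = 16) to 16.3% ± 2.98, higher in 16 of 16 pairs. JUND, the member with the steadiest expression in most cells, went from 52.6% ± 2.63 to 43.4% ± 3.44, lower in 16 of 16. JUNB stood at 38.7% ± 3.89 and 40.3% ± 4.33, higher in 13 of 16. These shares are descriptions without a test.

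**Figure D1:**
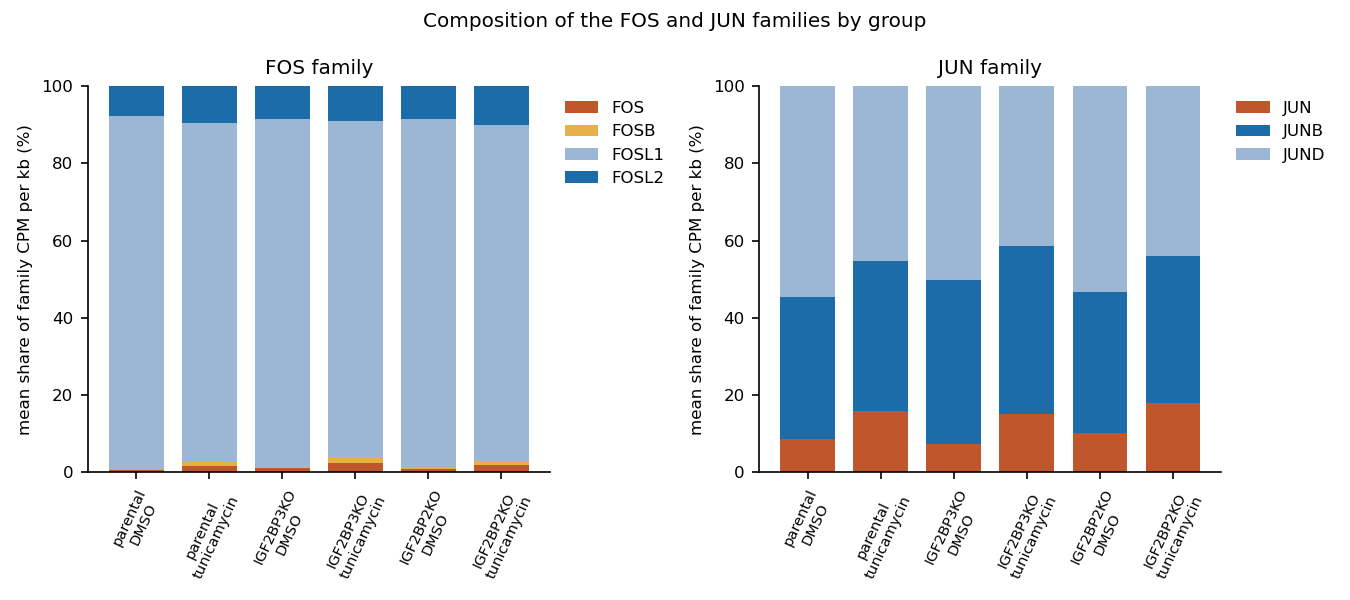
Mean share (%) of each gene in the summed level per kb (CPM per kb) of the FOS family (left) and the JUN family (right), stacked to 100% for each of the 6 groups (n = 4 parental or 6 knockout libraries per bar). FOSL1 fills most of the FOS family in every group, and the JUN section is larger in tunicamycin than in DMSO in each genotype.

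Tunicamycin raised nearly all of these genes in all 3 genotypes. In edgeR (quasi-likelihood test, p adjusted by Benjamini and Hochberg), 9 of 10 were higher in parental cells (all but FOSL1), 10 of 10 in IGF2BP3 knockout and 10 of 10 in IGF2BP2 knockout. Of all genes tested, 12.5%, 16.2% and 19.2% were called higher in the same 3 comparisons. The median log2 fold change of the 10 genes was 1.35 in parental cells, 1.16 in IGF2BP3 knockout and 1.26 in IGF2BP2 knockout; over all genes tested it was -0.01. For 9 of the 10 genes every tunicamycin library lay above every DMSO library over all 32. FOSL1 was the exception. The share of all genes with such a separation was not counted.

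EGR1, a zinc finger transcription factor and the classic immediate early reporter of ERK signalling, had the largest change. In parental DMSO libraries it stood at 61.1 and 56.2 CPM in sample 1 and at 60.0 and 59.0 CPM in sample 2. In tunicamycin the values were 424 and 361 CPM in sample 1 and 467 and 354 CPM in sample 2, with no overlap. EGR1 thus rose 6.81-fold, or by 2.77 on the log2 scale (SE 0.0843; edgeR adjusted p = 2.10e-08). In IGF2BP3 knockout the level went from 46.2 to 62.2 CPM (median 58.6) in DMSO to 324 to 505 CPM (median 453) in tunicamycin, a log2 fold change of 2.94 (SE 0.112). IGF2BP2 knockout went from 44.3 to 76.2 CPM (median 49.9) to 308 to 476 CPM (median 376), a log2 fold change of 2.81 (SE 0.0725).

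JUN rose next most by the median over lines. Its parental DMSO libraries held 16.1 and 14.0 CPM in sample 1 and 17.6 and 12.5 CPM in sample 2. Parental tunicamycin libraries held 59.6 and 46.4 CPM in sample 1 and 70.8 and 45.3 CPM in sample 2, all above the DMSO values. On the log2 scale JUN rose by 1.88 (SE 0.147; edgeR adjusted p = 1.21e-05) in parental cells, 2.02 (SE 0.118) in IGF2BP3 knockout and 1.80 (SE 0.132) in IGF2BP2 knockout. JUNB, which competes with JUN for partners, rose by 1.08 (SE 0.0810) in parental cells, from 31.3 to 35.1 CPM to 60.5 to 80.2 CPM. JUNB shares its position with HOOK2 on the other strand, and whether counting used the strand is not given in the sources used here. Over all libraries HOOK2 had 26514 counts and JUNB 36279. JUND rose by 0.72 on the log2 scale (SE 0.0607), from 44.8 to 57.5 CPM to 73.8 to 93.1 CPM. In the knockouts the log2 changes of JUNB were 1.01 and 1.06 and those of JUND 0.70 and 0.70.

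FOS, whose dimers with JUN are more stable than pairs of JUN, was rare and rose. Parental DMSO libraries held 3.28 and 2.75 CPM in sample 1 and 3.74 and 3.31 CPM in sample 2, against 11.7 and 11.1 CPM and 12.6 and 9.06 CPM in tunicamycin. The groups did not overlap, and FOS rose by 1.77 on the log2 scale (SE 0.132; edgeR adjusted p = 8.83e-06). The rise was 1.58 (SE 0.114) in IGF2BP3 knockout and 1.56 (SE 0.0912) in IGF2BP2 knockout. FOSL2, which encodes FRA-2, rose by 0.69 on the log2 scale (SE 0.0522), from 84.6 to 92.2 CPM to 135 to 156 CPM in parental cells. Its log2 change was 0.53 (SE 0.0412) in IGF2BP3 knockout and 0.61 (SE 0.0493) in IGF2BP2 knockout.

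FOSL1 moved least. Parental DMSO libraries held 304 and 235 CPM in sample 1 and 333 and 248 CPM in sample 2, and tunicamycin libraries 367 and 287 CPM and 415 and 310 CPM. The ranges overlap, and the libraries numbered 1 were above those numbered 2 in both treatments. In parental cells the log2 difference was 0.30 (SE 0.118; edgeR adjusted p = 0.0899), and the adjusted p was 0.0348 in DESeq2 and 0.000545 in edgeR without a filter on low counts. Leaving out 1 parental sample and number at a time gave 0.0634 to 0.150. Within the libraries numbered 1 the log2 difference in parental cells was 0.32 and within those numbered 2 it was 0.30. These 2 fits hold 1 library per parental sample and treatment, too few for a p-value of their own. Over all lines FOSL1 was higher in tunicamycin in 16 of 16 pairs of the same line and number. In IGF2BP3 knockout it rose by 0.37 on the log2 scale (SE 0.0671, adjusted p = 0.000625 by edgeR) and in IGF2BP2 knockout by 0.31 (SE 0.0872, adjusted p = 0.0106). Without clone B7 the IGF2BP2 knockout value was 0.32 with an adjusted p of 0.0608, above the threshold of 0.05.

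IER2 and IER3 are small proteins without a DNA-binding domain of the AP-1 kind. IER3 (also IEX-1), a regulator of cell survival, stood at 35.1 and 27.7 CPM in parental sample 1 and 34.9 and 31.0 CPM in sample 2 in DMSO. In tunicamycin it stood at 102 and 91.8 CPM in sample 1 and at 111 and 85.9 CPM in sample 2, well apart from DMSO. IER3 rose by 1.61 on the log2 scale (SE 0.0873; edgeR adjusted p = 1.00e-06), and the value was 1.48 and 1.45 in the IGF2BP3 and IGF2BP2 knockouts. IER2, a nuclear protein, rose by 0.96 on the log2 scale (SE 0.0783) in parental cells, from 33.9 to 39.0 CPM to 60.0 to 79.7 CPM. Its log2 changes in the knockouts were 0.94 and 0.88. IER2 in parental DMSO had 1 library, number 1 of sample 1, above the other 3.

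DUSP1, the phosphatase that inactivates ERK, JNK and p38, was at a similar level in every DMSO library, from 7.59 to 11.5 CPM over the 16. In parental tunicamycin libraries it stood at 32.1 and 27.8 CPM in sample 1 and at 39.8 and 26.8 CPM in sample 2. DUSP1 rose by 1.79 on the log2 scale in parental cells (SE 0.117; edgeR adjusted p = 3.57e-06). The value was 1.31 (SE 0.127) in IGF2BP3 knockout and 1.67 (SE 0.169) in IGF2BP2 knockout.

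**Figure D2:**
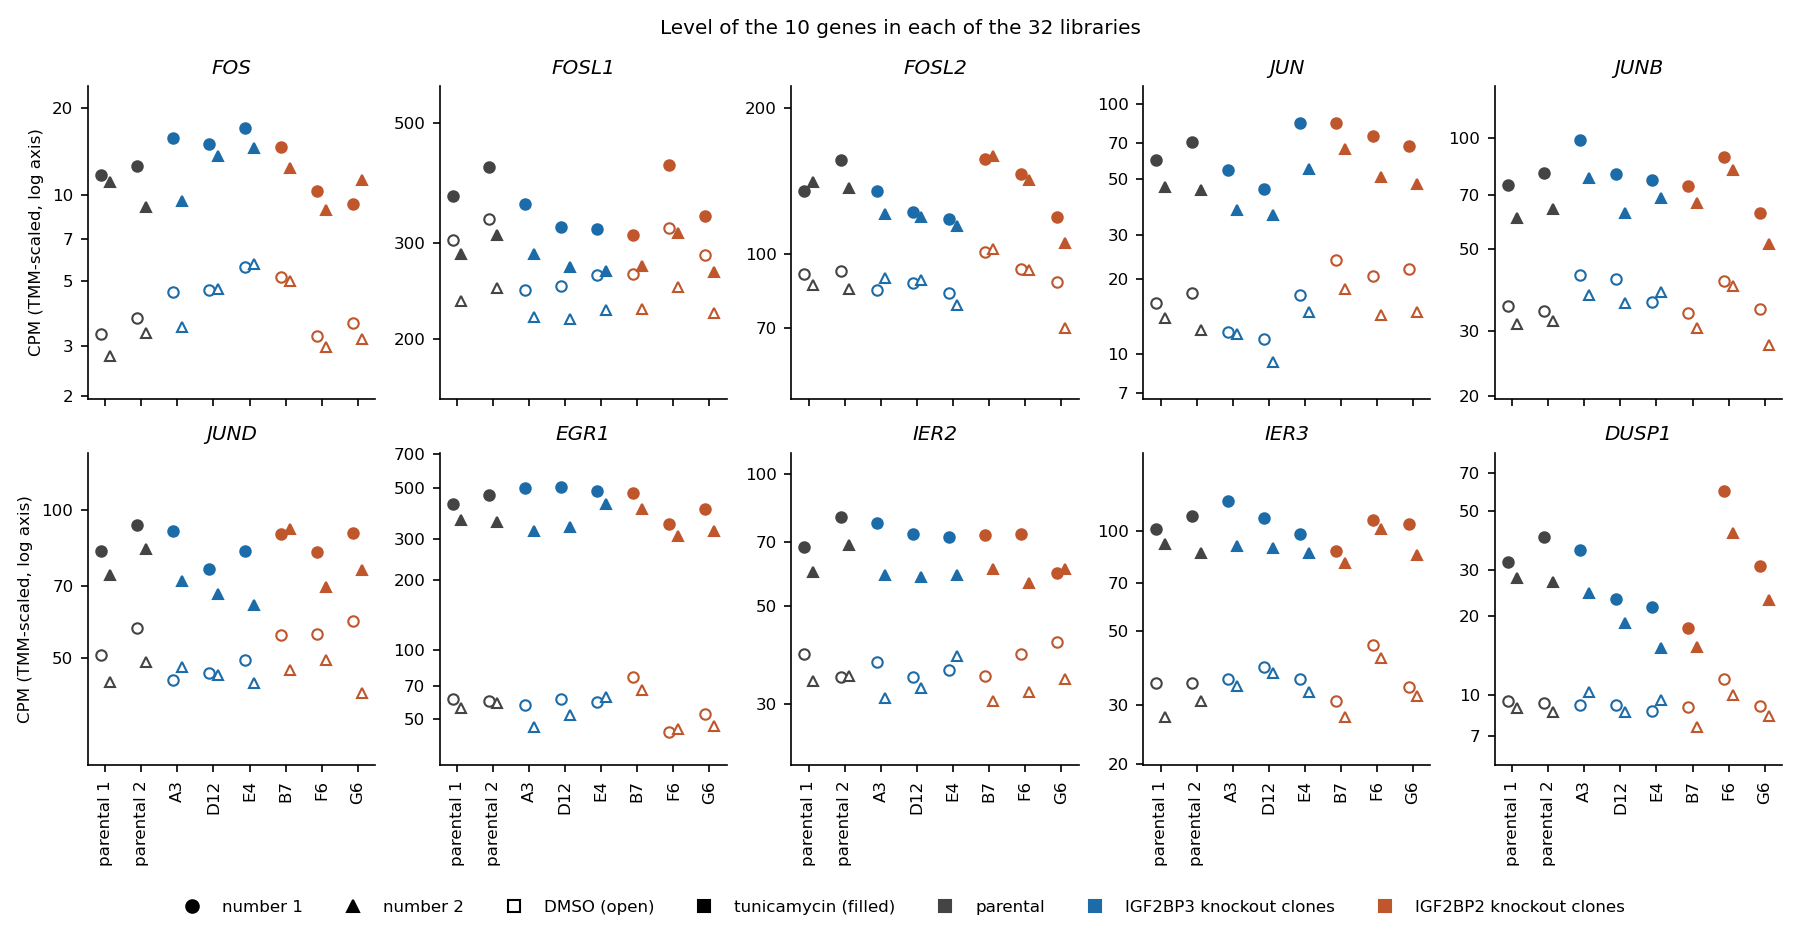
Level (TMM-scaled CPM, log axis) of each of the 10 genes in all 32 libraries, by line; open symbols are DMSO and filled ones tunicamycin, circles are libraries numbered 1 and triangles those numbered 2; colour marks the genotype. For every gene but FOSL1 all filled symbols lie above all open ones, and DUSP1 spreads from 15.1 to 59.4 CPM in tunicamycin but only from 7.59 to 11.5 CPM in DMSO.

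Taken line by line, 72 of 80 tests were called higher in edgeR (9 genes in each of 8 lines, and FOSL1 in none), against 7.56% of all tests over genes and lines. The fold change of EGR1 ran from 6.13 in B7 to 7.79 in A3. JUN ran from 3.15-fold in G6 to 4.27-fold in E4, FOS from 2.64-fold in B7 to 3.80-fold in parental sample 1, and IER3 from 2.41-fold in F6 to 3.10-fold in parental sample 1. The fold change ran from 1.84 to 2.20 for JUNB, 1.60 to 2.14 for IER2, 1.44 to 1.76 for JUND, 1.38 to 1.65 for FOSL2 and 1.19 to 1.37 for FOSL1. DUSP1 varied most, from 1.98-fold in E4 and 2.00-fold in B7 to 4.61-fold in F6. A test of whether the tunicamycin change differs among the 8 lines, added after these values were seen, called 0 of the 10 genes and 0% of all genes with edgeR; DESeq2 was not run for it. DUSP1 alone of the 10 had an unadjusted p under 0.05 in that edgeR model (adjusted p = 1.00). Of all 15622 genes in that model, 115 had an unadjusted p under 0.05. Without a filter on low counts the adjusted p of DUSP1 in that test was 1.30e-06.

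**Figure D3:**
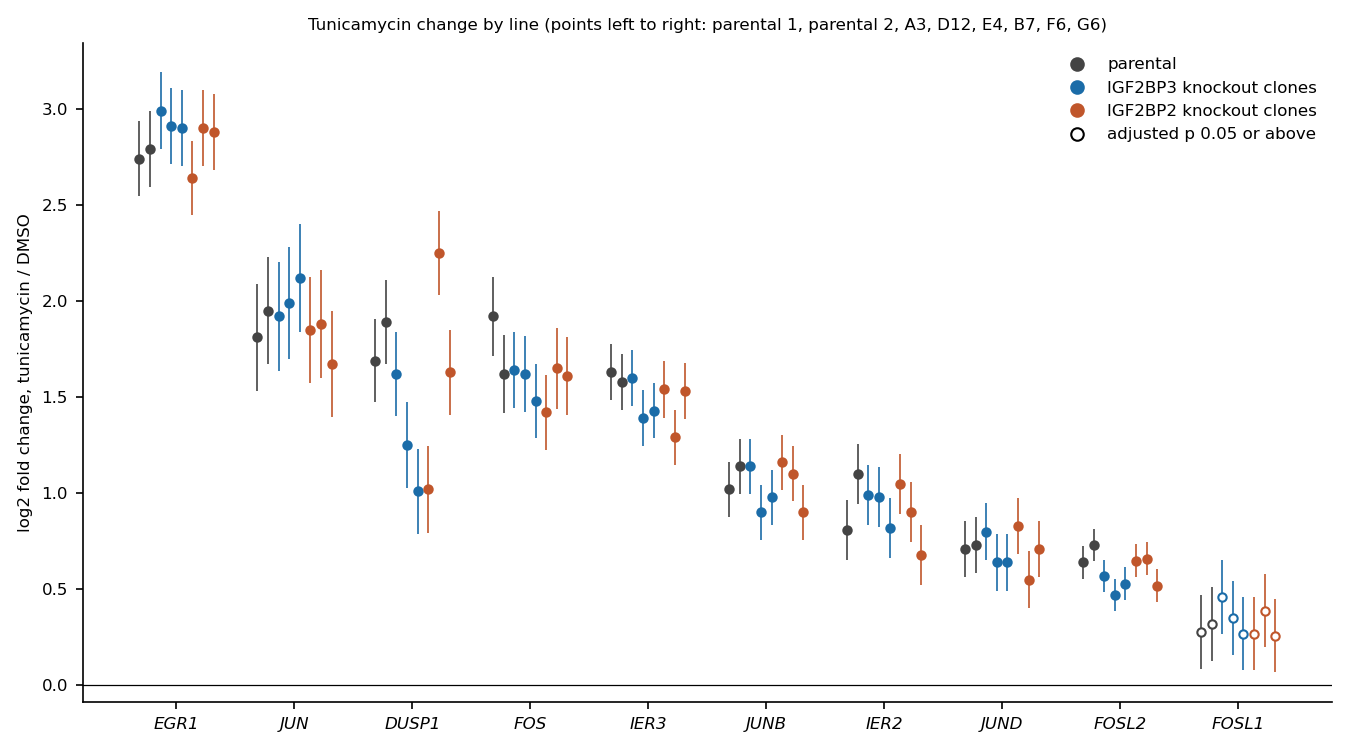
log2 fold change of tunicamycin over DMSO (points) with its standard error (bars) for each gene in each of the 8 lines, fitted by edgeR; open points have an adjusted p of 0.05 or above. Genes are ordered by their median, from EGR1 down to FOSL1, and the 8 points of DUSP1 are spread more widely than those of the other genes.

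The number in the library title moved with several of these genes, and with genes at large. Over 12836 genes, deviations of same-numbered libraries from their line and treatment correlated at a median of 0.468 over 120 pairs. The share of all genes with the patterns given next was not counted. In tunicamycin the library numbered 1 was above the one numbered 2 in 8 of 8 lines for EGR1, JUN, JUNB, IER3, DUSP1 and FOSL1. For FOSL1, JUN and IER3 this also held in 8 of 8 lines in DMSO. The tunicamycin change of EGR1 was larger in the libraries numbered 1 in 8 of 8 lines, for example 2.96 against 2.58 on the log2 scale in parental sample 2 and 2.64 against 2.59 in B7. Each number holds 1 library of every line and treatment, so the groups compared are balanced for it. The part of the number in these levels was not tested beyond the values given here.

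With all clones of a genotype together, none of the 10 genes differed past the threshold between IGF2BP3 or IGF2BP2 knockout and parental cells in edgeR. In DMSO, 0 of 10 were called by edgeR for IGF2BP3 knockout against parental cells, where 1.61% of all genes were called. That comparison held 4 of the 10 at an unadjusted p under 0.05, against 1994 of all 14568 genes. DESeq2 called 2 of the 10, against 507 of all genes. In tunicamycin 0 of 10 were called for IGF2BP3 knockout (0.718% of all genes), with 3 at an unadjusted p under 0.05 and 1 call by DESeq2. Over all 14626 genes tested, 1502 had such a p and DESeq2 called 270. For IGF2BP2 knockout the counts were 0 of 10 in DMSO (0.0137% of all genes; 1 at an unadjusted p under 0.05, 0 by DESeq2) and 0 of 10 in tunicamycin (0.00694%; 0 unadjusted, 0 by DESeq2). Over all genes 690 of 14564 in DMSO and 1005 of 14419 in tunicamycin had such a p for IGF2BP2 knockout. DESeq2 called 12 and 3 genes there. The 2 libraries of a clone share that clone, so each knockout rests on 3 clones.

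FOS had the largest estimate of these genes in IGF2BP3 knockout cells in DMSO, short of the threshold in edgeR. The 6 knockout libraries held 4.60 and 3.47 CPM (A3), 4.68 and 4.71 CPM (D12) and 5.62 and 5.73 CPM (E4), and 5 of the 6 lay above all 4 parental libraries (highest 3.74 CPM). The log2 difference was 0.55 (SE 0.150; edgeR adjusted p = 0.0847). DESeq2 gave an adjusted p of 0.0321, and edgeR gave 0.0387 without clone A3 (log2 fold change 0.66), 0.237 without clone E4 (log2 fold change 0.41) and 0.260 with counts summed per line. Within the libraries numbered 1 the log2 value was 0.51 and within those numbered 2 it was 0.60. In tunicamycin it was 0.36 (SE 0.139, adjusted p = 0.373 by edgeR), with 5 of 6 knockout libraries above all parental ones.

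JUNB in DMSO had a log2 difference of 0.22 between IGF2BP3 knockout and parental cells (SE 0.0544, adjusted p = 0.0581 by edgeR). All 6 knockout libraries, from 35.7 to 42.5 CPM (median 37.9), lay above all 4 parental libraries (31.3 to 35.1 CPM). The adjusted p was 0.0201 in DESeq2, and in edgeR 0.0388 with a mean CPM of at least 1 and 0.0482 without clone E4. It was 0.142 without clone A3, 0.187 with counts summed per line, and 0.277 and 0.554 within the libraries numbered 1 and 2. FOSL1 went the other way, with a log2 value of -0.24 (SE 0.0768, adjusted p = 0.147 by edgeR). Without a filter on low counts the adjusted p of FOSL1 was 0.0224, and within the libraries numbered 1 it was 0.0405 (log2 -0.33); within those numbered 2 the log2 value was -0.14 (adjusted p = 0.638). Summing the counts of each line gave FOSL1 an adjusted p of 0.102 in edgeR, and leaving out number 1 of parental sample 2 gave 0.426 (log2 -0.16). In tunicamycin FOSL2 was lower in all 6 IGF2BP3 knockout libraries (114 to 135 CPM, median 120) than in all 4 parental ones, although the highest knockout and the lowest parental value both round to 135 CPM. The log2 value was -0.22 (SE 0.0545, adjusted p = 0.112 by edgeR, 0.0188 by DESeq2). In edgeR the adjusted p was 0.286 with counts summed per line and 0.369 without number 1 of parental sample 2. DUSP1 in tunicamycin was below all parental libraries in 5 of 6 IGF2BP3 knockout libraries, with a log2 value of -0.45 (SE 0.183, adjusted p = 0.414 by edgeR). The value depends on single lines. Without clone A3, which held the sixth, it was -0.67 (adjusted p = 0.0594), without clone E4 it was -0.30 (adjusted p = 0.739), and without number 1 of parental sample 2 it was -0.33 (adjusted p = 0.719).

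For the other members the estimated genotype effects were small next to their tunicamycin changes. In IGF2BP3 knockout in DMSO the log2 values were -0.07 (SE 0.0673) for EGR1, -0.23 (SE 0.141) for JUN, -0.11 (SE 0.0575) for JUND, -0.02 (SE 0.0625) for IER2, 0.16 (SE 0.0623) for IER3 and 0.02 (SE 0.0840) for DUSP1. In IGF2BP2 knockout in DMSO the values ran from -0.10 for EGR1 and FOSL1 to 0.32 for JUN (SE 0.138, unadjusted p = 0.0359, adjusted p = 0.983 by edgeR). In IGF2BP2 knockout in tunicamycin they ran from -0.10 for IER2 to 0.25 for JUN. A p that misses the threshold does not show that the levels are the same.

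Whether knockout cells respond differently to tunicamycin was tested as an interaction. For IGF2BP3 knockout 0 of 10 genes and 0% of all genes were called by edgeR (0 of the 10 by DESeq2). At an unadjusted p under 0.05 were 255 of all 15313 genes and 2 of the 10. One was DUSP1, whose log2 change in the knockout minus that in parental cells was -0.48 (SE 0.199, edgeR adjusted p = 1.00). The other was FOSL2, with a difference of -0.15 (SE 0.0638, edgeR adjusted p = 1.00). For IGF2BP2 knockout 0 of 10 and 0% of all genes were called by edgeR (0 by DESeq2, 0 at an unadjusted p under 0.05). The differences for EGR1 were 0.17 (SE 0.162) in IGF2BP3 knockout and 0.04 (SE 0.118) in IGF2BP2 knockout, those for JUN 0.14 (SE 0.205) and -0.08 (SE 0.227), and those for FOS -0.18 (SE 0.185) and -0.21 (SE 0.155). Both interactions use the same parental libraries.

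Taken clone by clone, FOS, DUSP1 and FOSL2 gave calls. Against the parental samples, 2 of 60 tests of a gene in a clone were called in DMSO and 4 of 60 in tunicamycin by edgeR, where 2.62% and 2.96% of all such tests were called, so the DMSO count lies near that of all genes. At an unadjusted p under 0.05 the tests numbered 9 and 13, against 10491 and 11587 of all 93732 tests. DESeq2 called 3 and 5, against 2854 and 3146 over all genes. The adjustment was made within each clone. Parental sample 2 against sample 1 gave 0 of 10 in DMSO and 0 of 10 in tunicamycin (0% of all genes in both). At an unadjusted p under 0.05 were 151 and 459 of all genes. No single-cell sorting is given for the parental samples, so these counts do not measure how far single-cell clones differ. Clones of the same knockout differed among themselves in 7.63% (IGF2BP3) and 26.4% (IGF2BP2) of all genes by edgeR over both treatments.

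In DMSO both calls were of FOS. It was higher in E4 by 0.80 on the log2 scale (SE 0.178, adjusted p = 0.0111 by edgeR) and in B7, an IGF2BP2 knockout clone, by 0.63 (SE 0.181, adjusted p = 0.0466). B7 held 5.18 and 5.01 CPM, above all 4 parental libraries, while F6 (3.23 and 2.97 CPM) and G6 (3.58 and 3.17 CPM) lay within the parental range. Both calls lean on the parental libraries. Without number 2 of parental sample 1 the adjusted p was 0.0538 for E4 and 0.154 for B7. For B7 it was also 0.0762 without number 1 of sample 1, 0.0604 without number 1 of sample 2 and 0.0959 without number 2 of sample 2. IER3 in F6 was not called in the main fit, but had a log2 value of 0.44 in DESeq2 (SE 0.129, adjusted p = 0.0187). In edgeR its adjusted p was 0.0448 with DESeq2 size factors, 0.0238 at a mean CPM of at least 1 and 0.00155 without a filter. Without number 1 of parental sample 1 it was 0.0434, and leaving out any other parental library number gave no call. Clone E4 also had the highest mean FOS in tunicamycin, 15.7 CPM, with a log2 difference of 0.51 from parental cells (SE 0.155, adjusted p = 0.0725 by edgeR; 0.0453 without number 1 of parental sample 2).

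In tunicamycin DUSP1 gave 3 of the 4 calls, in both directions. It was lower in B7, at 18.0 and 15.3 CPM, with a log2 value of -0.92 (SE 0.188, adjusted p = 0.00309 by edgeR). E4 was lower as well, at 21.6 and 15.1 CPM, with a log2 value of -0.78 (SE 0.184, adjusted p = 0.0161). F6 was higher, at 59.4 and 41.3 CPM, with a log2 value of 0.69 (SE 0.171, adjusted p = 0.0188), and both its libraries lay above the other 14 tunicamycin libraries. B7 and F6 were made with the same guide, and their mean IGF2BP2 levels in DMSO were 83.0 and 92.0 CPM. D12 stood at 23.2 and 18.8 CPM (log2 value -0.58, SE 0.184, adjusted p = 0.154), A3 at 35.7 and 24.5 CPM and G6 at 31.0 and 22.9 CPM, and none of these was called. The call for B7 held when any 1 number of a parental sample was left out (highest adjusted p 0.0203). The E4 call did not hold without number 1 of sample 1 (0.0688) or number 1 of sample 2 (0.0897), nor the F6 call without number 2 of sample 1 (0.0810) or number 2 of sample 2 (0.0885).

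FOSL2 was the other gene called in tunicamycin, lower in E4 with a log2 value of -0.28 (SE 0.0737, adjusted p = 0.0292 by edgeR). G6 had a larger log2 difference of -0.33 (SE 0.0741) that was not called (adjusted p = 0.0569; 0.00319 in DESeq2; 0.0429 without number 2 of parental sample 2). The E4 value had an adjusted p of 0.0541 without number 1 of parental sample 1, 0.0949 without number 2 of sample 1 and 0.107 without number 1 of sample 2. Without a filter on low counts it was 0.128.

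**Figure D4:**
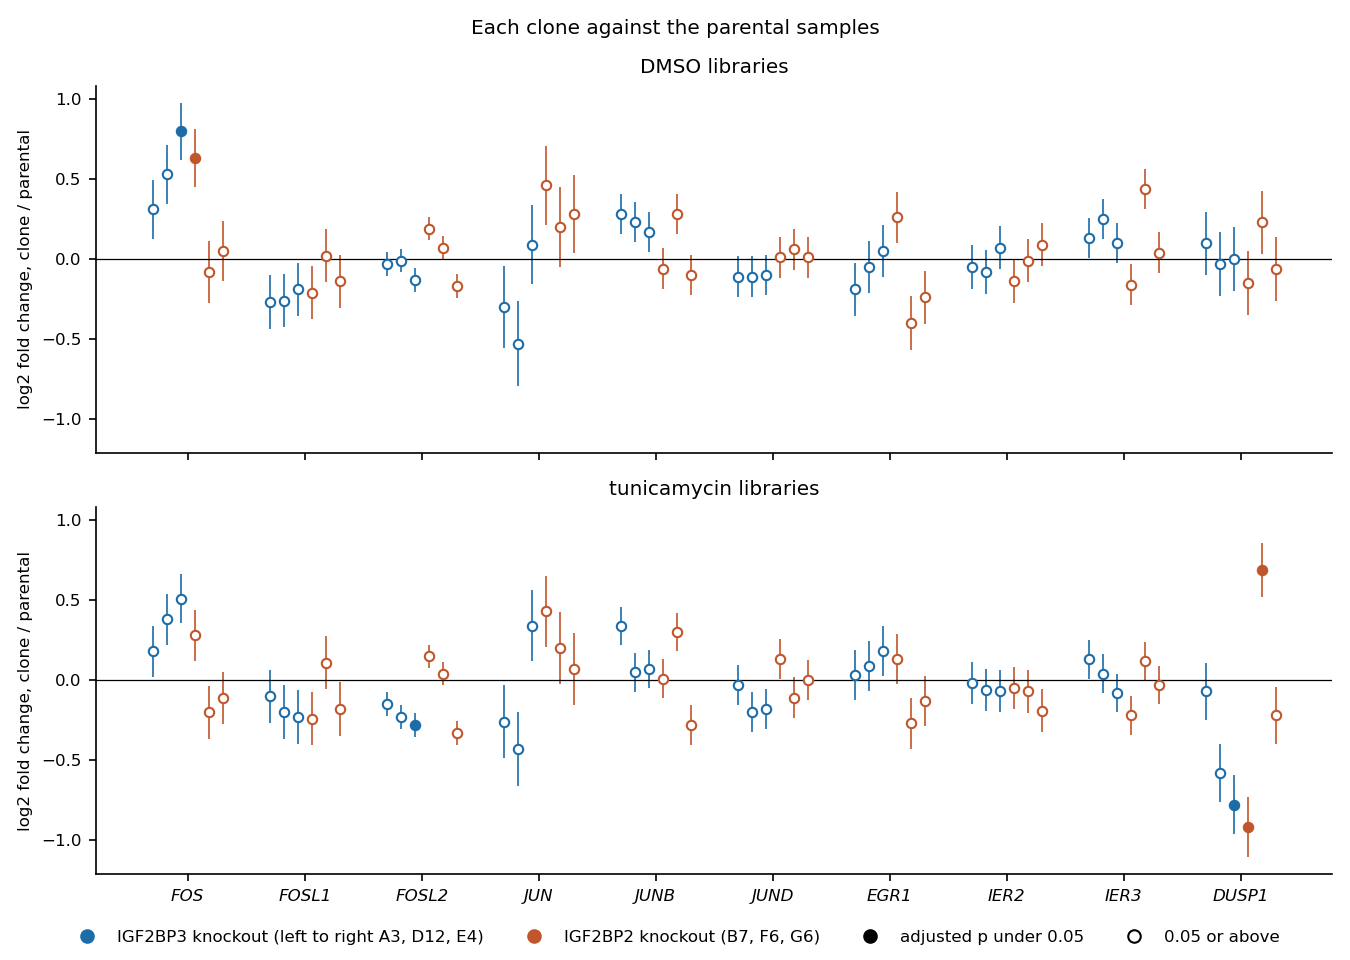
log2 fold change of each clone over the parental samples (points) with its standard error (bars) for the 10 genes, in DMSO (top) and tunicamycin (bottom), fitted by edgeR; filled points have an adjusted p under 0.05. Filled points are FOS in E4 and B7 in DMSO, and DUSP1 in E4, B7 and F6 and FOSL2 in E4 in tunicamycin.

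The 3 clones of a genotype were also compared among themselves over both treatments. Among the IGF2BP3 knockout clones 1 of 10 genes differed by edgeR, a share close to the 7.63% of all genes. It was JUN (adjusted p = 0.0122), lowest in D12, with 11.5 and 9.32 CPM in DMSO and 45.8 and 36.0 CPM in tunicamycin. A3 held 12.3 and 12.1 CPM and 54.6 and 37.7 CPM, and E4 17.3 and 14.7 CPM and 84.3 and 55.2 CPM. Among the IGF2BP2 knockout clones 6 of 10 differed, against 26.4% of all genes. FOSL2 (adjusted p = 0.000339) was lowest in G6, with means in DMSO and tunicamycin of 78.7 and 112 CPM against 102 and 158 CPM in B7. EGR1 (adjusted p = 0.000644) was highest in B7, with 71.5 and 439 CPM against 44.8 and 328 CPM in F6. JUNB (adjusted p = 0.00126) and IER3 (adjusted p = 0.00162) were highest in F6, at 40.3 and 85.1 CPM and at 43.7 and 105 CPM. FOS (adjusted p = 0.00199) was highest in B7, at 5.09 and 13.5 CPM, and DUSP1 (adjusted p = 0.00366) in F6, at 10.8 and 50.3 CPM. The 4 genes that were not called there were FOSL1, JUN, JUND and IER2.

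Other AP-1 leucine zipper genes and immediate early genes, from lists chosen with earlier results known, changed in both directions in tunicamycin. In parental cells 6 of 10 tested AP-1 relatives were higher and 1 was lower (median log2 change 0.86). The largest changes were in ATF3, a stress-induced AP-1 partner (3.50, SE 0.110), FOSB (2.16, SE 0.111), JDP2, a repressing partner of JUN (2.00, SE 0.107), and MAFF (1.58, SE 0.116), and the gene that was lower was BATF3 (-0.62, SE 0.189). Of 29 other immediate early genes 20 were higher and 5 lower (median 0.65). The higher ones included BTG1 (3.11), EGR2 (2.82), EGR3 (2.01) and NR4A2 (1.58), and the lower ones included BTG2 (-0.85, SE 0.0732). BATF3 and BTG2 were picked for mention after their values were seen. The counts were 6 and 0 of 10, and 21 and 5 of 29, in IGF2BP3 knockout, and 7 and 1 of 10, and 20 and 5 of 28, in IGF2BP2 knockout. Of all genes, 26.8%, 33.8% and 40.1% were called in either direction in the 3 genotypes.

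Of genes on either side of AP-1 in the pathway, counts called can be read against the 26.8% of all genes called in parental cells in either direction. Of 14 feedback inhibitors of MAP kinase signalling, 8 were higher and 2 lower in each of the 3 genotypes. In parental cells these included DUSP10 (1.64, SE 0.306), which acts on JNK and p38, ERRFI1 (1.61, SE 0.0802), an inhibitor of the EGF receptor, and DUSP5 (1.57, SE 0.110), which acts on ERK. The lower ones were DUSP4 (-0.57, SE 0.121) and DUSP2 (-0.46, SE 0.0923), also named after their values were seen. Of 19 upstream kinases and transcription factors, 3 were higher and 3 lower in parental cells, with a median of -0.07, a share called close to that of all genes. ERN1, which encodes IRE1, rose by 0.87 on the log2 scale (SE 0.0797) and ELK1 by 0.36 (SE 0.0658). TRAF2 fell by 0.67 (SE 0.0810) and MAP2K4, a JNK-activating kinase, fell by 0.25 (SE 0.0523). Of 15 textbook AP-1 target genes 9 were expressed enough to test, and 3 were higher and 1 lower in parental cells (median log2 change 0.33). There CXCL8, which encodes interleukin 8, rose by 2.60 (SE 0.300) and HBEGF, a ligand of the EGF receptor, by 2.32 (SE 0.0887). PLAUR rose by 0.35 (SE 0.0910), while CCND1, which encodes cyclin D1, fell by 0.46 (SE 0.0627). In IGF2BP3 knockout 2 of the 9 were higher and 2 lower (median -0.01), and in IGF2BP2 knockout 3 were higher and 1 lower (median -0.03).

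**Figure D5:**
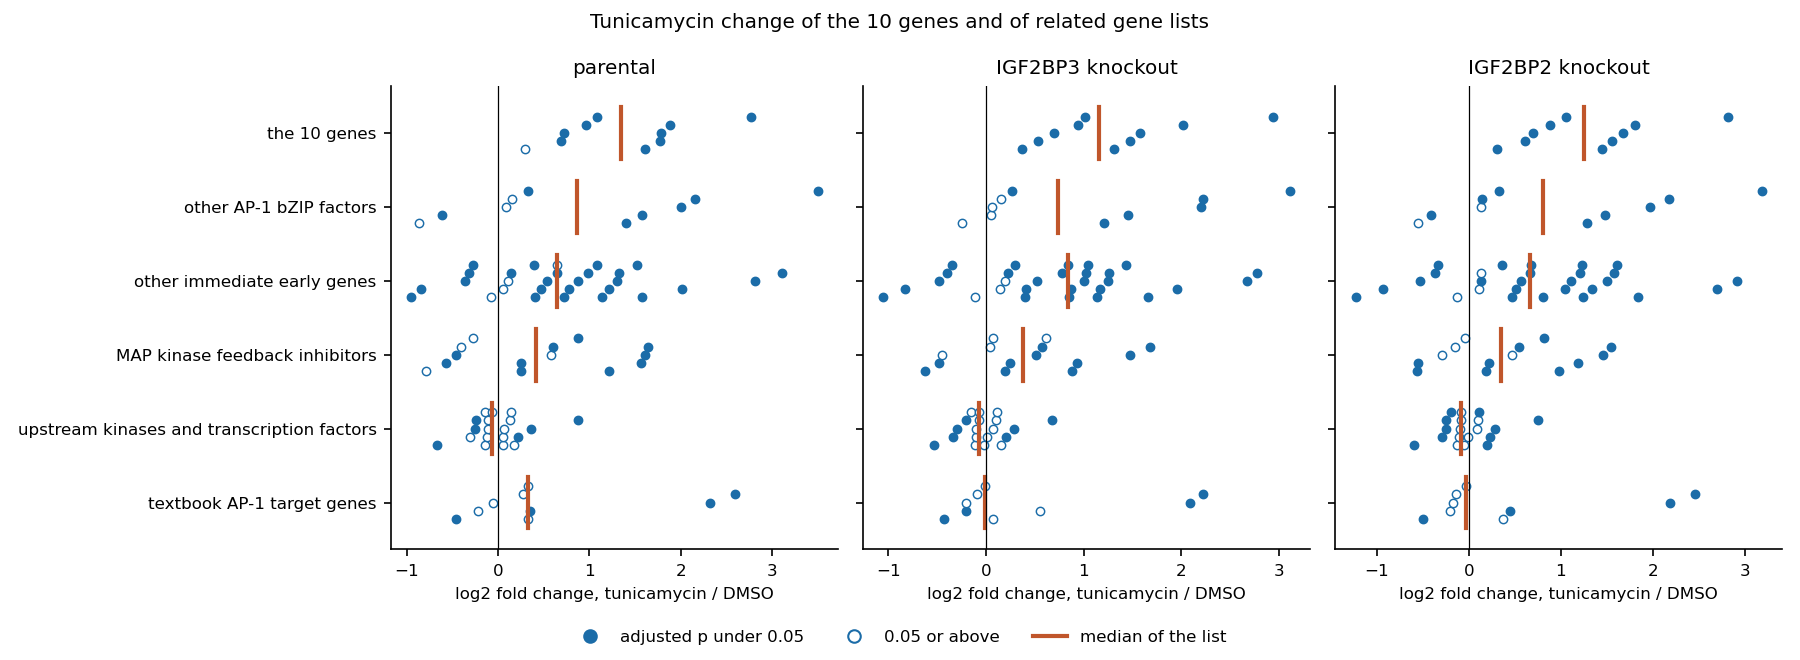
log2 fold change of tunicamycin over DMSO for each tested gene of the 6 lists (points, with vertical offsets that carry no value) in parental cells, IGF2BP3 knockout and IGF2BP2 knockout; filled points have an adjusted p under 0.05 in edgeR and vertical bars are list medians. The 10 genes all lie above 0, while upstream kinases and transcription factors lie on both sides of it.

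Between IGF2BP3 knockout and parental cells in DMSO, where 1.61% of all genes were called, 1 of 10 AP-1 relatives was called by edgeR, ATF3, which was higher by 0.55 on the log2 scale (SE 0.0861, adjusted p = 0.00553). Of 27 other immediate early genes 1 was higher, BTG2 (0.54, SE 0.0657), and 3 were lower: CCN2, which encodes the growth factor CTGF (-0.88, SE 0.125), NR4A2 (-0.57, SE 0.132) and ZFP36L1 (-0.40, SE 0.0828). Among 14 feedback inhibitors ERRFI1 (-0.65, SE 0.138) and DUSP6 (-0.39, SE 0.0641) were lower, and among 19 upstream genes MAP3K5, which encodes the kinase ASK1, was lower (-0.38, SE 0.0546). In tunicamycin, where 0.718% of all genes were called, the calls were 2 of 29 other immediate early genes, CCN2 (-1.19, SE 0.119) and NR4A2 (-0.49, SE 0.0887), and 1 of 14 feedback inhibitors, DUSP6 (-0.34, SE 0.0613), all lower. ERRFI1 (adjusted p = 5.79e-07 by edgeR) and CCN2 (adjusted p = 0.0162) also differed among the IGF2BP3 knockout clones themselves.

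The genes whose mean log2 CPM over the 16 combinations of line and treatment ran closest to 3 of the members were found among 10054 genes with a symbol and a mean of at least 5 CPM. For FOS they were KAT7 (Pearson r = 0.989), AKNA (0.987) and XRRA1 (0.985), for JUN they included RWDD2A (0.988) and AMOTL2 (0.981), and for FOSL1 they were MYADM (0.953), CLCF1 (0.933) and TMEM128 (0.932). The 16 points share the treatment and the libraries, so these values mostly follow the difference between tunicamycin and DMSO. Over the 8 line means in tunicamycin, DUSP1 ran against FOS (r = -0.86) and EGR1 (r = -0.87) and with FOSL1 (r = 0.90), and FOS ran with EGR1 (r = 0.88). These are the 4 largest in size of the 45 pairs of these genes and were picked for that. In DMSO the same pairs had -0.48, -0.78, 0.36 and 0.62. They are descriptions of 8 lines from 3 genotypes.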

How the data were processed

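Poly(A) RNA from 32 HCT116 libraries was sequenced as paired reads with a directional kit, per the labels' protocols. The deposited table holds raw read counts per gene. STAR 2.7.5c and hg38 are named, with no role, in the submitters' processing notes, and the counting tool, its strand setting and the annotation are not given in the sources used here. Of 60660 rows, 44 rows for the Y copies of pseudoautosomal genes, all with 0 counts, were left out.

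Groups follow the titles. Tests used edgeR 4.0.16 (R 4.3.3; TMM, filterByExpr, quasi-likelihood, Benjamini-Hochberg over all genes tested, threshold 0.05), with the line as a term in tunicamycin comparisons and all 32 libraries in those by line or clone. DESeq2 1.42.0 was an alternative. Scripts were tested on simulated data. The members and gene lists were chosen with earlier results of these data known. From each other list up to 4 called genes per comparison were named by size of change, and for FOS, JUN and FOSL1 the 3 genes with the closest pattern, of which 1 is not reported here. Promoter sequences come from RefSeq (GRCh38.p14) and gene positions and exon lengths from GENCODE 29. Alternatives covered normalization, filters, the replicate number, single libraries and clones, and counts summed per line.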

Additional observations from a re-analysis of the deposited data

Results flagged for a closer look

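IER2 in the parental DMSO libraries had 1 library far from the other 3: number 1 of parental sample 1 stood at 39.0 CPM, against 33.9 to 34.7 CPM. It was the 1 such case among 60 groups of 1 gene in 1 group of libraries, where chance gives about 1 in 20.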

How the results depend on the processing

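Of 1190 values of single genes under an alternative, 1173 kept their side of the threshold and, where called, their direction. A call was gained by 16 and lost by 1 (FOSL1 in IGF2BP2 knockout without clone B7, log2 0.32), and 0 called values reversed. Values uncalled in both fits count as kept even where their sign changed. For DUSP1 in IGF2BP2 knockout against parental cells in tunicamycin, the sign changed in 7 of 15 alternatives. Of 169 counts of called genes, 150 stayed within 1.5 times. For IGF2BP3 knockout against parental cells in DMSO, the count of 0 became 1 without a filter on low counts, 1 at a mean CPM of at least 1, 2 in DESeq2 and 1 in the libraries numbered 1 alone, and ran from 0 to 1 when 1 parental library or clone was left out (over all genes, 235 became 427, 305, 507 and 141). In tunicamycin it became 1 in DESeq2 (over all genes 105 became 270). For single clones in DMSO the 2 calls became 6 without a filter and 0 to 2 when 1 parental library number was left out. Over all genes the 2455 calls of 93732 tests became 2408 of 229962 without a filter, and 1898 in the fit with 0. The 4 calls in tunicamycin became 2 to 4 when 1 parental library number was left out. In the fits with 2, the 2772 calls over all genes became 2051 and 2132. The calls among IGF2BP3 knockout clones became 2 without a filter (over all genes, 1089 of 14265 became 1243 of 33768). Those of a tunicamycin change that differs among lines became 1 (over all genes, 0 of 15622 became 51 of 38327). DESeq2 was not run for the latter, whose alternatives were chosen after seeing the data. The causes were not tested.

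The replicate number gives a pairing that is a hint from the data only. Deviations of same-numbered libraries from their line and treatment correlated at 0.0645 to 0.673 over 120 pairs (118 over 0.1). With the replicate number as a block, calls went from 0 to 2 (IGF2BP3 knockout, DMSO: JUNB, adjusted p = 0.0315 by edgeR, and FOSL1, 0.0134), 0 to 1 (IGF2BP3 knockout, tunicamycin: FOSL2, 0.0338), 6 to 8 (among IGF2BP2 knockout clones: also JUN, 0.000294, and FOSL1, 0.000155), 2 to 14 (single clones, DMSO), 4 to 18 (single clones, tunicamycin) and, for the tunicamycin change by line, 72 to 80. FOSL1 was then called higher in tunicamycin in parental cells as well (3.65e-06). Over all genes the block took the 235 calls in DMSO to 513 and the 105 in tunicamycin to 333. For single clones all calls went from 2455 to 6641 in DMSO and from 2772 to 7665 in tunicamycin. Among the IGF2BP2 knockout clones they went from 3729 to 5844, and for the tunicamycin change by line from 18714 to 31097. Precision is limited by 2 libraries per clone and treatment, and for FOS by its low counts.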
